A study of Homo sapiens with 6 samples.

Results

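Of the 21330 PLAG1-S peaks on chromosomes 1 to 22 and X that were found in both clones, 5511 were narrow, had no USF2 peak beside them and lay at an end of a protein-coding gene. These are referred to as the PLAG1-S-only narrow peaks. They were chosen by the peak calls themselves: a clone 4 peak narrower than 700 bp that overlapped a clone 5 PLAG1-S peak by at least 1 bp, with no USF2 peak of either clone within 100 bp, edge to edge, and with a protein-coding RefSeq gene end within 1 kb. Width, fold enrichment and the absence of a USF2 peak are therefore properties of the selection and are given below as description only.

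The peaks come from chromatin immunoprecipitation and sequencing (ChIP-seq) of 2 clones, #4 and #5, of K562, a human chronic myelogenous leukemia cell line. Both clones overexpressed USF2 together with Flag-PLAG1-S, a short translational isoform of PLAG1 carrying the Flag tag. Each clone gave 1 PLAG1-S library, pulled down with anti-Flag, 1 USF2 library and 1 input library. There was no library from cells without the transgenes, so binding by PLAG1 or USF2 at normal levels was not measured, and each clone is a single derived line. Per the labels, 42.5 M reads were obtained from every immunoprecipitated sample and 55 M from every input. The median summit held 24 fragments in the clone 4 PLAG1-S list, 22 in that of clone 5, and 20 and 23 in the USF2 lists of clones 4 and 5, so that a typical fold enrichment rests on few fragments. The USF2 lists held 9142 and 4221 peaks in clones 4 and 5, against 37331 and 29608 for PLAG1-S, and a site without a USF2 peak is a site where none was called at this depth.

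PLAG1 is a C2H2 zinc finger transcription factor that is highly expressed in fetal tissues and is activated by chromosome rearrangement in salivary gland pleomorphic adenoma and lipoblastoma. It recognizes a bipartite G-rich element, made of a core and, several bases away, a run of G. USF2 is a basic helix-loop-helix leucine zipper factor that binds the E-box CACGTG as a dimer and is present in most cell types. Promoters of widely expressed genes are commonly GC-rich and rich in CpG, and G-rich elements are frequent in them whether or not a given factor binds.

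Against the PLAG1-S-only narrow peaks, 2 other groups at coding gene ends serve for comparison. The 1258 co-bound peaks are PLAG1-S peaks of both clones with a USF2 peak of each clone within 100 bp, of any width. The 751 wide PLAG1-S-only peaks meet the same rule as the narrow ones but for a width of 700 bp or more. A further 1368 PLAG1-S peaks at coding gene ends had a USF2 peak in 1 clone only and belong to none of these groups. The PLAG1-S-only narrow peaks made up 62.0% of the 8888 reproducible PLAG1-S peaks at coding gene ends.

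The promoters under 4 of the strongest PLAG1-S-only narrow peaks are shown because they hold the summit and let the sequence under strong PLAG1-S binding without USF2 be read directly. They are RefSeq windows of 300 bases on GRCh38.p14, from 250 bases before to 50 after the gene start, in the direction of the gene. Capitals mark the PLAG consensus, defined here as GAGGC or GGGGC followed by 6 to 8 bases of any kind and GGG, on either strand. RASGEF1B, which encodes an exchange factor for Ras-family GTPases, held 2 overlapping matches, centred no closer than 81.5 bases from the summit. The windows of SEPTIN6, a septin of the cytoskeleton, SH3BP5L and WDFY1 held none, which says only that these letters do not occur in these windows. None of the 4 held a CACGTG. FLAD1, the other peak of the strongest 15 with its summit in such a window, differed, with both a PLAG consensus and a CACGTG within 50 bp of the summit, and is shown further on.
SEPTIN6, chrX:119693119-119693418, minus strand: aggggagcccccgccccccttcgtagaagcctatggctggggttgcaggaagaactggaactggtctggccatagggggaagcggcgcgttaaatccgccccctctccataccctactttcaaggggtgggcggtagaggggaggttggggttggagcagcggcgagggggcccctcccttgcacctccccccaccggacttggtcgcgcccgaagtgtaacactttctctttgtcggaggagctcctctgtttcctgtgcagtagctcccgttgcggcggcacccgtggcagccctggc
RASGEF1B, chr4:81471858-81472157, minus strand: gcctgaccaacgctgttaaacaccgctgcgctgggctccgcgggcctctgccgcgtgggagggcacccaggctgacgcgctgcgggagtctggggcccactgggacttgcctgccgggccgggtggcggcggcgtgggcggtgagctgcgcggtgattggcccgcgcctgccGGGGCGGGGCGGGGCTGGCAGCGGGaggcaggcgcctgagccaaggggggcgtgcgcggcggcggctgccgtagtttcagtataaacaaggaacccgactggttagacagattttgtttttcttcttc
SH3BP5L, chr1:248825866-248826165, minus strand: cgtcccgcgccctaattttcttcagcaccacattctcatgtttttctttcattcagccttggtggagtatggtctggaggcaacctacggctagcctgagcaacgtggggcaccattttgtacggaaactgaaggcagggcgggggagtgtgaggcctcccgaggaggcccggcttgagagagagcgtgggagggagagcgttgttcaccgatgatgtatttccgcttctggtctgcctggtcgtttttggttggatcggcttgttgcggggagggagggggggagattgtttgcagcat
WDFY1, chr2:223945286-223945585, minus strand: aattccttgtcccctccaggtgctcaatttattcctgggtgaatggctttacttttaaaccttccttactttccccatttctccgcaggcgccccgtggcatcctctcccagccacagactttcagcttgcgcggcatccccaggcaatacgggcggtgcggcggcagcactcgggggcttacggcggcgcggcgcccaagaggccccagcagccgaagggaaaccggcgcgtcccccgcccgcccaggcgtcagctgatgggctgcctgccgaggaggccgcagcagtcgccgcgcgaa

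At these 4 promoters the enrichment was nearly equal in both clones. The SEPTIN6 peak reached a fold enrichment over the local background of 33.2 in clone 4 and 31.4 in clone 5, with 125 and 112 fragments at the summits, which lay 20 bp apart. At RASGEF1B the fold enrichment was 24.8 and 25.6, and the summits were 3 bp apart. SH3BP5L reached 24.0 in clone 4 and 24.1 in clone 5, and WDFY1 21.3 and 18.9. SEPTIN6 and SH3BP5L had their summits 94 and 92 bp upstream of the start, RASGEF1B 153 bp upstream and WDFY1 7 bp downstream. Each of the windows held at least 1 GC box, GGGCGG on either strand.

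The strongest peak of the group lay at the start of the zinc finger gene ZNF837, at chr19:58380445-58381141, where clone 4 reached a fold enrichment of 36.8 and clone 5 one of 35.7, from 177 and 162 fragments. Its summit was 286 bp downstream of the start. It ranked 151 in the clone 4 list and 84 in that of clone 5. After SEPTIN6, RIPOR3 came next with 25.8 and 25.7 at chr20:50691036-50691713. TNFAIP8L1 stood at 25.7 and 23.4, and TSPAN32, a tetraspanin gene, at 23.2 and 21.4. The peak at FLAD1, which encodes FAD synthase, was higher in clone 4, at 23.5 against 17.0. KHDRBS3, for an RNA-binding protein, and PKP3, for the desmosomal protein plakophilin 3, were instead higher in clone 5, at 17.1 against 21.4 and at 16.8 against 21.0. PNMT, the enzyme that makes adrenaline, stood at 19.5 and 20.4, and TXN, thioredoxin, at 18.9 and 16.7. HYAL2, a hyaluronidase gene, closed the strongest 15 at 16.1 and 18.6, but its clone 5 peak was 1158 bp wide, had its summit 821 bp away from that of clone 4, and lay within 100 bp of a USF2 peak.

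Peaks of this height were the exception. The fold enrichment ran from 2.37 to 36.8 in clone 4, with a median of 5.24, and from 2.25 to 39.2 in clone 5, with a median of 5.17. The summits held a median of 25 fragments in clone 4 and 23 in clone 5. Co-bound peaks had medians of 20.8 and 16.4, and wide PLAG1-S-only peaks 7.498 and 6.86. Only 213 of the 5511 (3.87%) were among the strongest 10% of the clone 4 list and 238 (4.32%) among those of clone 5. A fold enrichment of at least 10 in both clones was reached by 141. The width ran from 159 to 699 bp with a median of 335 bp, set by the rule at its upper end.

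Most peaks had similar height in the clones, with a smaller set that did not, but the selection favours similar heights. It required a call in both clones, which kept 21330 of 37331 peaks and dropped those seen in clone 4 alone. The lower and upper quartiles of fold enrichment were also close, at 4.29 and 6.91 in clone 4 and 4.34 and 6.42 in clone 5. The values below therefore describe the selected peaks and do not measure how well the clones reproduce each other. The fold enrichments were within 1.5 times of each other for 4607 peaks (83.6%, 95% interval 82.6 to 84.6), and 3048 (55.3%) were higher in clone 4. Across the 5511 peaks, which share libraries and inputs and are not replicates, Pearson's r of the log2 fold enrichments was 0.587 and Spearman's rho 0.547. The summits lay within 50 bp of each other for 49.5% of the peaks, with a median gap of 51 bp, whereas the median gap was 12 bp at co-bound peaks. Of the 85 peaks whose fold enrichment in clone 4 was under 0.5 times that in clone 5, 55 (64.7%) overlapped a clone 5 peak that lay within 100 bp of a USF2 peak. Of the 61 with the opposite ratio, over 2 times higher in clone 4, the number was 0, which allows a share of up to 4.92%. The rule barred USF2 peaks beside the clone 4 interval but not beside the clone 5 peak. It thus shapes this contrast, which is given as description only. In all, 125 of the 5511 (2.27%) overlapped such a clone 5 peak, and their absence of USF2 holds for the clone 4 interval only. Without them the Pearson's r was 0.653 over 5386 peaks and the share within 1.5 times was 84.6%.

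Genes at the ends of this range are given for both directions. At CIRBP, a cold-inducible RNA-binding protein gene, the clone 4 peak of 323 bp reached 5.38, whereas the clone 5 peak of 1856 bp reached 30.4 with its summit 1094 bp away. At NFIC, a nuclear factor I gene, the values were 5.83 and 19.0. Both overlapped a clone 5 peak beside a USF2 peak. In the other direction PLAAT2 reached 11.01 in clone 4 and 3.23 in clone 5. RWDD1 reached 13.3 and 4.12, and NSD1, a histone H3 lysine 36 methyltransferase gene, 8.89 and 3.02. None of these 3 had a USF2 peak beside its clone 5 peak, and their summits in the clones lay 58, 76 and 122 bp apart.

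**Figure D1:**
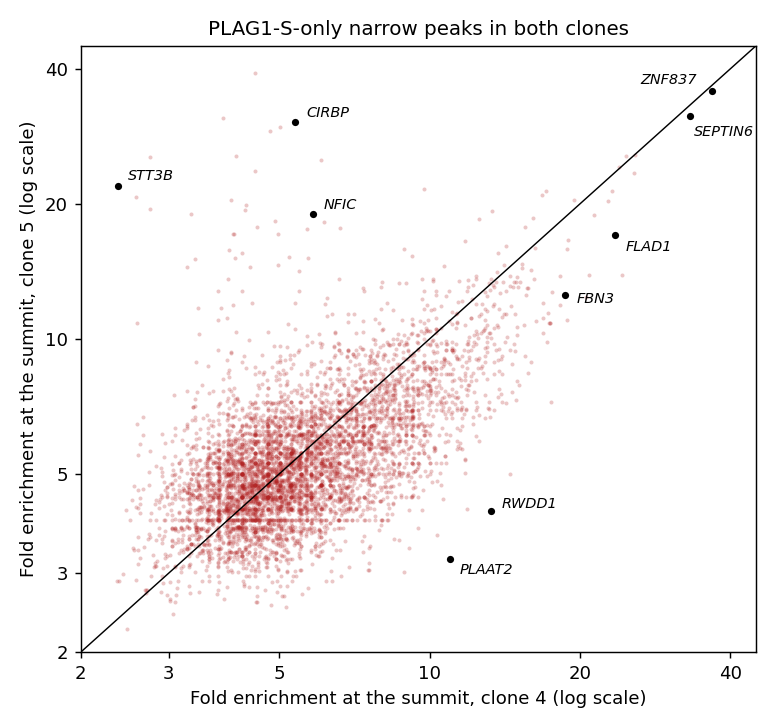
Fold enrichment at the summit in clone 4 (horizontal, log scale) and clone 5 (vertical, log scale) for the 5511 PLAG1-S-only narrow peaks, one point per peak, with named genes in black and the line of equality. Most points lie near the line between 3 and 10, while STT3B, CIRBP and NFIC stand well above it and RWDD1 and PLAAT2 below it.

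The weakest peaks stood on a high background, which peak calling itself entails. LZTR1, RSPH14, STT3B, FIBCD1 and DGCR2 had clone 4 fold enrichments between 2.37 and 2.47. Their local background was 9.12 to 18.9 fragments, against a lowest background of 2.80 in the list. No summit of that list held fewer than 11 fragments, which on the lowest background already gives a higher fold enrichment. Values this low can thus be called only on a higher background. At RSPH14 41 fragments in clone 4 and 44 in clone 5 gave fold enrichments of only 2.38 and 2.89. LZTR1, RSPH14 and DGCR2 lie on chromosome 22. The background was over 4 times the lowest at 24 of the PLAG1-S-only narrow peaks, 18 of them between positions 19122414 and 23169482 of chromosome 22, where its median was 14.5 fragments. K562 is known to carry extra copies of the BCR-ABL1 fusion, which joins parts of chromosomes 9 and 22. The copy number was not measured here and its part in these values was not tested. STT3B, for a subunit of the oligosaccharyltransferase, differed from the other 4: it reached 2.37 in clone 4 and 21.9 in clone 5, with USF2 peaks 103 and 230 bp from its clone 4 peak.

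The peaks at each limit of the rule are given with their clone 4 fold enrichments. CLIP1 and ZNF669 carried peaks of 699 bp, just narrow enough, with clone 4 fold enrichments of 4.46 and 5.07, and TTLL10 and PALS2 peaks of 700 bp with 4.59 and 4.12. B3GNT5 and ANXA2R were just near enough to a peak (4.23 and 3.60), MYL3 and TMEM39B just too far (3.13 and 5.22). MARCHF6 and DGCR2 had a USF2 peak 101 and 102 bp away (3.51 and 2.47). ZNF316 and ACSF3 had one at 97 and 95 bp and were higher (8.89 and 4.24). In all, 663 of the PLAG1-S-only narrow peaks had a USF2 peak farther off than 100 bp but within 1 kb.

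Where the strand of the nearest coding gene was known, 4037 of 4435 peaks (91.0%, 90.1 to 91.8) had a gene start as the nearest end and 398 a 3′ end. The share at starts was 93.8% for co-bound and 95.6% for wide PLAG1-S-only peaks, so that the differences, narrow minus other, were −2.80 percentage points (95% interval −4.37 to −0.974) and −4.58 (−6.19 to −2.49). All intervals here cover counting error only. The strand of 1076 peaks' nearest gene was not known from the sources used.

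Around the start, the PLAG1-S-only narrow peaks were spread into the gene. Their summits lay upstream of the start in 36.5% of cases, against 61.2% for co-bound peaks, a difference of −24.7 points (−28.1 to −21.3). The median summit stood 129 bp downstream of the start, that of the co-bound peaks 26 bp upstream. In the 100 bp just upstream lay 11.9% of the PLAG1-S-only narrow summits and 36.0% of the co-bound ones, and each of the next 3 bins of 100 bp downstream of the start held 9.66 to 10.6% of the former. Wide PLAG1-S-only peaks resembled the narrow ones, with 40.03% upstream and a difference of −3.55 points (−7.82 to 0.618). When clone 5 supplied the coordinates and widths, the share of narrow peaks upstream was 35.1%.

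**Figure D2:**
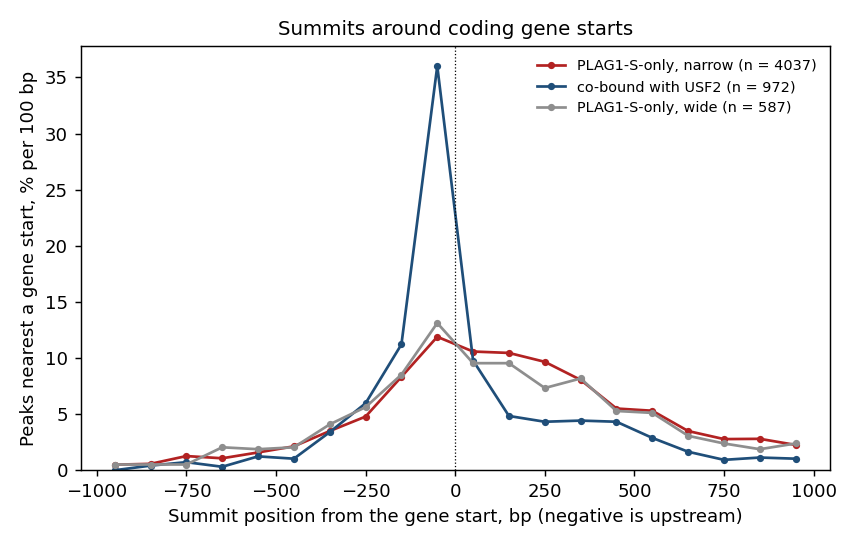
Position of the PLAG1-S summit from the nearest coding gene start (horizontal, bp, negative upstream), as the percent of the group's start-nearest peaks in each 100 bp, for PLAG1-S-only narrow, co-bound and wide PLAG1-S-only peaks. Co-bound summits pile up in the 100 bp before the start (36.0%), whereas both PLAG1-S-only groups are broad and extend well into the gene.

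The 398 peaks nearest a 3′ end were not weaker than those at starts, with median fold enrichments of 5.47 and 5.17 in clones 4 and 5 against 5.21 and 5.15. For 338 of them (84.9%) no gene start of any type in the RefSeq promoter windows lay within 1 kb. These windows cover 15812 of the 19974 coding genes, so that starts of other genes can have been missed. The strongest stood at BAX, a pro-apoptotic member of the BCL2 family, with 22.7 and 20.3 and a summit 720 bp past the gene's end. CTNNBIP1, an inhibitor of β-catenin binding to TCF factors, reached 16.2 and 13.6. FBN3, a fibrillin gene, reached 18.7 and 12.5. HCRT, which encodes the orexin precursor, stood at 13.6 and 13.4, and CAPN1, for calpain 1, at 13.3 and 13.6. BAX also had a co-bound peak at one of its ends.

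With known strands only, starts of 2 coding genes on opposite strands lay within 1 kb of 444 PLAG1-S-only narrow peaks (8.06%). The share was 11.4% for co-bound peaks, and the difference, narrow minus co-bound, was −3.39 points (−5.39 to −1.58). Pairs with a gene of unknown strand are missed in both groups. For 4604 peaks a single coding gene was within reach. A gene name attached to a peak is therefore not a shown target, and in the gene lists it is any gene of the list with an end within 1 kb, which need not be the nearest. The CDKN2D peak lies 3′ of that gene with its summit in the promoter window of KRI1, and that of SLC11A1 lies in the promoter window of CTDSP1. Among the other peaks named here, the summit was nearer to an end of MED22 than of RPL7A (463 against 550 bp), of RSPRY1 than of PSME3IP1 (79 against 115 bp), of APBB3 than of SLC35A4 (67 against 163 bp) and of ANKMY1 than of DUSP28 (146 against 864 bp). The same held for 1 of the peaks given below for SBNO2, beside GPX4, and 1 of those for PLCB3, beside GPR137.

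A total of 5253 of the 19974 coding genes had a PLAG1-S-only narrow peak within 1 kb of an end, which is 26.3% and serves as the background for the gene lists. Of these genes 325 also had a co-bound peak. There were 1063 genes with 2 or more such peaks, and 11 had 4. SBNO2 had 4, between 4.74 and 5.69 in clone 4. TRIB1, a pseudokinase gene, had 4 around one of its ends, from 4.00 to 9.82, and PLCB3, a phospholipase C gene, 4 at both of its ends, from 3.04 to 9.68. The share of coding genes differed by chromosome, from 34.9% on chromosome 16 and 34.6% on chromosome 22 to 18.05% on chromosome 13 and 14.3% on X. The 2 strongest peaks are on chromosome 19, where the share was 31.8%, and on X.

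The lists of genes are described by their counts against the 26.3% of all coding genes, and nothing is called particular to a list. The same share was 7.49% for co-bound peaks and 40.2% for any reproducible PLAG1-S peak. Among genes for basic cell functions, 37 of 77 mitochondrial ribosomal protein genes had a PLAG1-S-only narrow peak (48.1%, 37.3 to 59.0), whereas 19 of 87 cytosolic ribosomal protein genes did (21.8%, 14.5 to 31.6). MRPS24 was the strongest of the former, at 12.0 and 9.10, followed by MRPL16 at 8.88 and 8.33 and MRPL55 at 8.40 and 8.26. RPL7A (9.07 and 9.43) and RPS16 (10.6 and 8.70) led the latter. Any reproducible PLAG1-S peak, with or without USF2, was present at 61.0% of the mitochondrial and 62.1% of the cytosolic genes (40.2% of all coding genes), and co-bound peaks at 4 and 10 of them (5.19 and 11.5%). Among genes for splicing factors 24 of 74 had a peak (32.4%), with PRPF39 (17.3 and 10.9) and SF3B1 (16.9 and 10.3), a core component of the U2 snRNP, as the strongest. Genes with a proteasome symbol had 17 of 50 (34.0%), led by PSME3IP1, which is a PSME3-interacting protein and not a subunit, and by PSME3 itself at 10.0 and 10.4. Co-bound peaks were at 14 of the splicing factor genes (18.9%) and 2 of the proteasome genes (4.00%), against 7.49% of all coding genes. For any reproducible PLAG1-S peak the shares were 60.8 and 52.0%, against 40.2%.

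The shares of cell cycle and signaling genes lay above the 26.3% of all coding genes. Cyclins, cyclin-dependent kinases and their inhibitors had 23 of 53 (43.4%, 31.0 to 56.7). CDK6, a kinase of G1 phase, reached 16.4 and 10.9 with a summit 106 bp upstream of its start, and CDKN2D 16.9 and 12.0. Genes of the MAP kinase cascade had 20 of 48 (41.7%, 28.8 to 55.7), with MAP3K9 at 12.9 and 8.89, MAP4K3 at 7.57 and 8.47 and the p38 kinase gene MAPK11 at 7.38 and 7.22. Dual-specificity phosphatase genes, several of which encode enzymes that inactivate MAP kinases, had 12 of 25 (48.0%, 30.03 to 66.5). DUSP7 stood at 9.75 in clone 4 and 21.6 in clone 5, but its clone 5 peak lay beside a USF2 peak. The peak given for DUSP28, which is nearer to the start of ANKMY1, stood at 8.20 and 7.78. Any reproducible PLAG1-S peak was at 67.9, 64.6 and 64.0% of these lists in the same order, against 40.2% of all coding genes. Co-bound peaks were at 15.1, 8.33 and 12.0% of them, against 7.49%. The higher shares were thus not confined to PLAG1-S-only narrow peaks.

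Transcription factor genes showed a mixed picture. C2H2 zinc finger genes, the class to which PLAG1 itself belongs, had 191 of 608 (31.4%, 27.9 to 35.2), and 30 (4.93%) had a co-bound peak, against 7.49% of all coding genes. Counting every reproducible PLAG1-S peak, 256 of the 608 (42.1%) had one, near the 40.2% of all coding genes. ZNF785 followed ZNF837 at 15.6 and 12.6. Of 21 transcription factor genes of blood cells 10 had a peak (47.6%, 28.3 to 67.6). Any reproducible PLAG1-S peak was at 14 of the 21 (66.7%), against 40.2% of all coding genes, and a co-bound peak at 3 (14.3%). The erythroid factor GATA1 had its peak 3′ of the gene at 9.01 and 9.72, MYB upstream of its start at 8.97 and 9.73, and TAL1 80 bp downstream of its start at 8.57 and 9.20. HOX genes had 7 of 40 (17.5%), with HOXB3 at 13.2 and 7.24 and HOXB4 at 10.3 and 8.56, and 9 of them (22.5%) had a co-bound peak. A reproducible PLAG1-S peak of any kind was at 17 of the 40 (42.5%), near the 40.2% of all coding genes. Genes for Mediator subunits and general transcription factors had 31 of 108 (28.7%), led by TAF6 at 9.63 and 12.3. Among the PLAG and USF genes, 2 of 6 had a peak, PLAGL2 at 10.8 and 9.87 and USF3 at 9.48 and 7.78.

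Genes of membrane transport were close to the background, with 101 of 386 solute carriers (26.2%) and 24 of 90 RAB and ARF GTPases (26.7%). A co-bound peak was at 50 of the solute carriers (13.0%) and 11 of the GTPases (12.2%), against 7.49% of all coding genes. SLC25A36, a mitochondrial carrier of pyrimidine nucleotides, was the strongest solute carrier at 15.95 and 14.2, and SLC2A1, the glucose transporter GLUT1, had a peak 324 bp past its 3′ end at 12.0 and 13.5. RAB1B led the GTPases with 10.7 and 9.002. Replication-dependent histone genes were at the low end, with 5 of 71 (7.04%, 3.05 to 15.4), while 16 of the 71 (22.5%) had a co-bound peak, against 7.49% of all coding genes. With all reproducible PLAG1-S peaks counted, 27 of the 71 (38.0%) had one, near the 40.2% of all coding genes. Keratin genes had 4 of 55 (7.27%). Olfactory receptor genes, which are mostly silent outside the nose, had 5 of 392 (1.28%) and no other reproducible PLAG1-S peak, the strongest being OR1F1 at 6.67 and 6.86.

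Promoter sequences were compared in RefSeq windows of 300 bases. PLAG1-S-only narrow peaks overlapped 2354 distinct coding windows, co-bound peaks 881 and wide PLAG1-S-only peaks 536, and 10769 windows had no PLAG1-S peak within 1 kb. The PLAG consensus was found in 55.4% (53.4 to 57.4) of the windows under PLAG1-S-only narrow peaks, in 51.5% under co-bound ones, in 62.3% under wide ones, in 26.5% without a PLAG1-S peak and in 38.6% of all 22132 coding windows. The excess over co-bound windows was 3.91 points (0.0503 to 7.76), barely past 0. It did not hold in several other definitions of the groups, among them clone 5 coordinates (2.67, −1.18 to 6.51). The windows under wide peaks held the consensus more often, and the difference of narrow minus wide was −6.88 points (−11.4 to −2.25).

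The excess over windows without a PLAG1-S peak went together with base composition. The median GC content was 69.0% under PLAG1-S-only narrow peaks, the same as under co-bound peaks, and 55.3% without a peak. A CpG ratio, observed over expected, of at least 0.6 was found in 92.0% of the former and in 38.7% of the latter. Within bands of equal GC content the PLAG consensus shares were close. Between 65 and 70% GC it was in 51.0% of the windows under PLAG1-S-only narrow peaks and in 49.8% of those without a peak, a difference of 1.27 points (−3.90 to 6.43). At 75% GC or more the shares were 81.3 and 76.9%, a difference of 4.45 points (−0.233 to 9.11). In all 6 bands the share under the peaks was the higher one, and in all 6 the interval of the difference included 0. The GC box, bound by SP factors, can share bases with a GGGGC core. It was in 80.8% of the windows under PLAG1-S-only narrow peaks, 81.8% under co-bound peaks, 37.1% without a peak and 56.3% of all coding windows. In the same order, the ETS site CCGGAA was in 29.7, 26.6, 13.8 and 21.2% and the TATA box TATAAA in 3.48, 5.56, 14.4 and 9.46%. The CCAAT box was in 32.0, 37.7, 35.8 and 34.6%, and the difference of PLAG1-S-only narrow from co-bound windows was −5.70 points (−9.44 to −2.02) for CCAAT and −2.08 (−3.92 to −0.517) for TATAAA. All were sought on both strands.

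The E-box CACGTG, the site of USF2, set the groups apart. It was in 8.28% (7.24 to 9.47) of the windows under PLAG1-S-only narrow peaks and in 62.9% of those under co-bound peaks, a difference of −54.6 points (−57.9 to −51.2). The groups were formed on USF2 peaks, so that this direction was built into the choice. The share under PLAG1-S-only narrow peaks was nevertheless 4.76 points (3.66 to 5.99) above the 3.52% of windows without a PLAG1-S peak, close to the 8.34% of all coding windows. Unlike the PLAG consensus, the E-box remained more frequent than in windows without a PLAG1-S peak within bands of GC content below 75%. It was in 17.2% against 3.76% between 50 and 60% GC (difference 13.4 points, 9.43 to 18.3), in 11.6% against 5.19% between 60 and 65%, in 7.62% against 4.27% between 65 and 70% and in 5.54% against 3.26% between 70 and 75%. At 75% GC or more it was in 3.80% against 4.14% (−2.67 to 1.98 points). Set against all coding windows, which include those under co-bound peaks, the excess was limited to the bands below 65% GC. The share of all coding windows was 7.76% between 50 and 60% GC and 10.0% between 60 and 65%. It was 10.7% between 65 and 70%, 10.8% between 70 and 75% and 9.43% at 75% or more, each above the share under PLAG1-S-only narrow peaks.

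**Figure D3:**
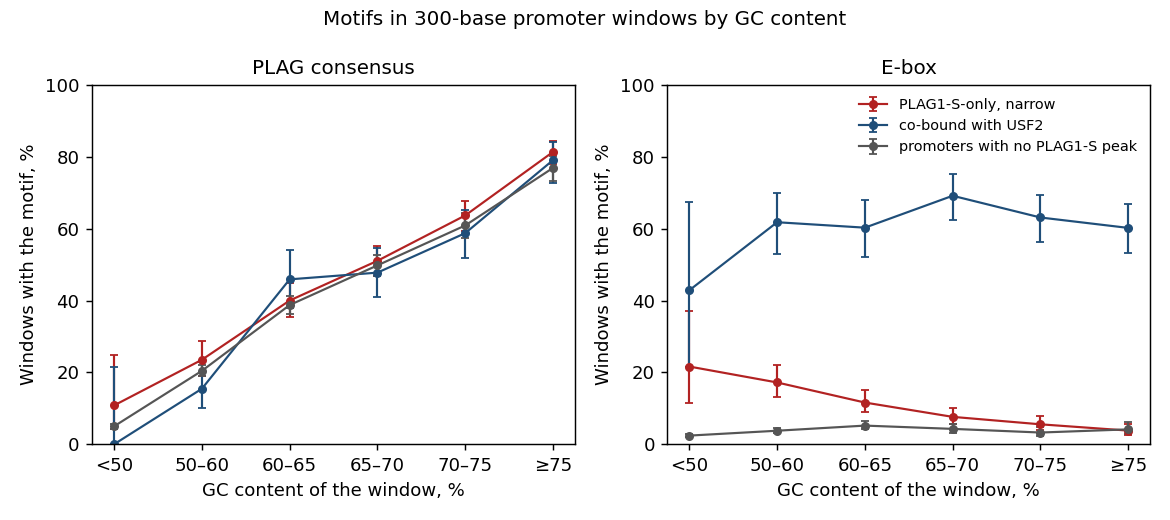
Percent of 300-base promoter windows with the PLAG consensus (left) and the E-box (right) by GC content of the window, for windows under PLAG1-S-only narrow peaks, under co-bound peaks and without a PLAG1-S peak within 1 kb; bars are 95% Wilson intervals (counting error only). The PLAG consensus rises with GC content alike in all groups, whereas the E-box lies above windows without a peak in every band up to 75% GC.

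The position of the motifs within the peaks was read where the summit lay inside a promoter window, at 1303 PLAG1-S-only narrow, 625 co-bound and 222 wide peaks. An E-box was centred within 50 bp of 144 of the PLAG1-S-only narrow summits (11.1%, 9.46 to 12.9), of 523 of the co-bound ones (83.7%) and of 23 of the wide ones (10.4%). The E-box was concentrated at the summit. Its rate was 1.21 matches per kb within 50 bp and 0.0836 between 100 and 200 bp, 14.5 times lower, from 146 and 11 matches. At co-bound peaks the rates were 9.98 and 0.380. The PLAG consensus was far less focused, with 4.66 matches per kb within 50 bp and 3.02 between 100 and 200 bp, a ratio of 1.54, and the GC box had a ratio of 1.22. GC content fell over the same distance from 72.5 to 67.4%.

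**Figure D4:**
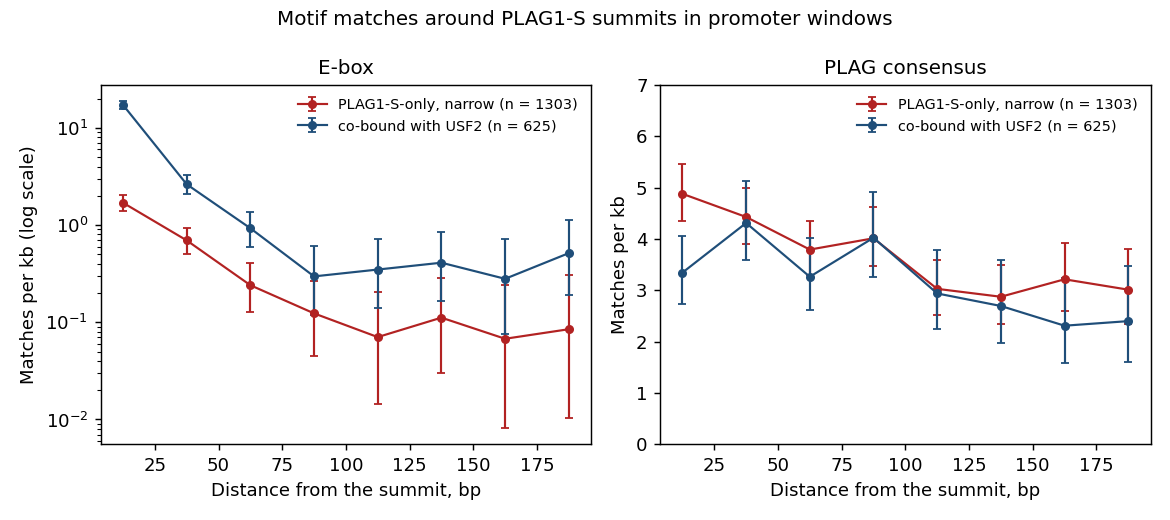
Matches per kb of the E-box (left, log scale) and the PLAG consensus (right, linear scale) by distance from the PLAG1-S summit in bins of 25 bp, for PLAG1-S-only narrow and co-bound peaks with the summit inside a promoter window; bars are exact 95% Poisson intervals, which cover counting error only. The E-box falls from 1.70 per kb in the first bin of the PLAG1-S-only narrow peaks to about 0.1 per kb beyond 100 bp, whereas the PLAG consensus falls from 4.88 to about 3.

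The stretches below are shown because they carry an E-box at the summit of a PLAG1-S peak with no USF2 peak called beside it. They are the 6 with the largest fold enrichment in the weaker clone, chosen after their values were seen, and each holds 91 bases in the direction of the gene with the summit at base 46. Capitals mark the E-box.
FLAD1, chr1:154983114-154983204, plus strand: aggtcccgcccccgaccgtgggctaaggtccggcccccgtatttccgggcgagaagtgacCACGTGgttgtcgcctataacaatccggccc
SLC35A4, chr5:140564620-140564710, plus strand: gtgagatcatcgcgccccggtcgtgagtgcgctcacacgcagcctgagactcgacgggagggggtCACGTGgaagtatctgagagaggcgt
IRF9, chr14:24161154-24161244, plus strand: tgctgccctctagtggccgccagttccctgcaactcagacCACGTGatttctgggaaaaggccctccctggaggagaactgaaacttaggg
DNAI2, chr17:74274155-74274245, plus strand: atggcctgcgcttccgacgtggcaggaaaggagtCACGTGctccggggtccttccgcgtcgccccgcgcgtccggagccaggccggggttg
SF3B1, chr2:197435086-197435176, minus strand: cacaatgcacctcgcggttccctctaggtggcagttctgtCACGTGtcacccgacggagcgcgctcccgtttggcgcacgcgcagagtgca
PSME3IP1, chr16:57186186-57186276, minus strand: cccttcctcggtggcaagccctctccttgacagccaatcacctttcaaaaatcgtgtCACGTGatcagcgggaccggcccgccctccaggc

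The E-box of IRF9 and of SF3B1 was centred 2.5 bases from the summit, and that of SLC35A4, the farthest, 22.5 bases. FLAD1 was the strongest, with 136 fragments in clone 4 and 94 in clone 5. IRF9, an interferon response factor, reached fold enrichments of 17.4 and 10.8. SLC35A4 stood at 14.1 and 11.3, SF3B1 at 16.9 and 10.3, DNAI2, a dynein intermediate chain, at 12.6 and 10.3, and PSME3IP1 at 12.2 and 10.2. All 6 were higher in clone 4 and none had a USF2 peak within 1 kb. In the 8-base form TCACGTGA, with T before and A after, the E-box was found for 16 of the 146 matches near PLAG1-S-only narrow summits (10.96%) and for 159 of 598 at co-bound summits (26.6%), a difference of −15.6 points (−21.1 to −8.65). In windows without a PLAG1-S peak the share was 3.95% (16 of 405), lower by 7.01 points (2.27 to 13.3). There the E-boxes of the whole window were counted, as no summit exists. With 1 of these flanks the share was 26.7% near PLAG1-S-only narrow summits, 50.8% near co-bound ones and 28.6% without a peak.

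Among the 1303 PLAG1-S-only narrow peaks with the summit in a promoter window, the 144 with an E-box near the summit were the taller ones. Their median fold enrichment was 7.93 in clone 4 and 6.23 in clone 5, against 5.47 and 5.24 for the others, and 75.7% of them had summits within 50 bp in both clones, against 49.0%. Co-bound peaks with an E-box were taller too, at 25.8 against 17.4 in clone 4 and 20.8 against 12.8 in clone 5. Wide PLAG1-S-only peaks had 9.61 against 7.61 in clone 4, but 6.74 against 6.95 in clone 5. With these 1303 PLAG1-S-only narrow peaks split into 4 groups of nearly equal size by clone 4 fold enrichment, the share with an E-box was 3.37, 5.50, 10.7 and 24.8%. This runs from the weakest to the strongest group, with intervals of 1.89 to 5.94% and 20.4 to 29.8% for the first and last. Split by clone 5 fold enrichment it was 4.59, 10.3, 9.63 and 19.7%. The PLAG consensus near the summit gave 30.4, 26.6, 33.6 and 30.7% in the clone 4 groups and 23.5, 27.7, 32.3 and 37.8% in those of clone 5, so that an increase appeared with one clone's values only. A USF2 peak beyond 100 bp but within 1 kb was present at 10 of the 144 peaks with the E-box and at 111 of the 1159 without. Whether USF2 occupied these E-boxes below the level of a called peak was not tested, since the peak lists hold no signal outside peaks.

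Within 50 bp of the summit a PLAG consensus was found for 395 of the 1303 PLAG1-S-only narrow peaks (30.3%, 27.9 to 32.9) and for 26.6% of the co-bound ones, a difference of 3.75 points (−0.590 to 7.93). Both motifs stood near 27 of the 1303 summits and neither near 791 (60.7%, 58.0 to 63.3), against 11.5% at co-bound and 61.3% at wide PLAG1-S-only summits. The narrow and wide groups thus differed by less than counting error in both motifs near the summit: by 1.94 points (−4.78 to 8.02) in the PLAG consensus and by 0.691 (−4.28 to 4.51) in the E-box. The GC box was near 48.6% of the PLAG1-S-only narrow summits and 56.0% of the co-bound ones, a difference of −7.42 points (−12.1 to −2.65).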

How the data were processed

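Peak lists are as deposited by the authors, who ran MACS2 on hg38 for every immunoprecipitated library by itself, with the pooled inputs of both clones as control. The submitters' processing notes also name FastQC, cutadapt, HISAT2 2.0.4, SAMtools, bedtools and HOMER. How reads were filtered, and which MACS2 release was run, is not given in the sources used here. The deposited lists give a fold (a ratio to the local background) and −log10 p and −log10 q at each summit, which the authors took from MACS2. The largest q-value was 0.00990 for PLAG1-S and 0.0494 for USF2, so the lists differ in stringency. The deposited summit offset was used for position.

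Fragments and background at a summit were worked out from these columns by the MACS2 Poisson model (tolerance 0.001 on −log10 p), which succeeded in 99.9% or more of every list. Of 500 summits simulated from clone 4 PLAG1-S peaks, 100% gave back the right number.

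Gene ends and biotypes came from the RefSeq table (GRCh38.p14), and strand and promoter sequence from RefSeq promoter windows (22132 coding windows, strand known for 15812 of 19974 coding genes). Sequence outside these windows was not searched. E-box, GC box and the other motifs were sought on both strands. Shares carry 95% Wilson intervals and differences of shares 95% Newcombe intervals, which cover counting error only. No test over the 2 clones was run, and no p is given. The clone number pairs a PLAG1-S with a USF2 library, since both were made from 1 cell line.

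The members and the 18 gene lists were chosen with earlier results of these data known. Named genes are those of the 15 strongest and 5 weakest peaks by the smaller fold of both clones, the 5 strongest at 3′ ends, up to 3 per gene list, the extremes of the ratio between clones (at least 30 fragments in clone 4), the peaks at each limit of the rule and the genes with most peaks. A gene of this rule and 1 of the lists are not reported here. Alternatives changed 1 choice at a time. Python 3.11.15, numpy 2.4.6, pandas 2.3.3, scipy 1.17.1 and matplotlib 3.10.9 were used.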

Additional observations from a re-analysis of the deposited data

How the results depend on the processing

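The difference in the E-box share between promoters under PLAG1-S-only narrow and co-bound peaks kept its direction under all 17 alternatives, with an interval clear of 0 under the 16 that gave one, from −55.6 to −27.0 points, the latter with any CANNTG counted as an E-box. Every alternative still formed the groups on USF2 peaks, so this direction was built in and its persistence is not independent evidence. The small excess of the PLAG consensus over co-bound promoters kept its direction under all 18 alternatives, but its interval included 0 under 10, and the replicate block gave none. It was 1.67 points with 50% reciprocal overlap between clones, 3.42 with a gap of exactly 7 bases, 0.443 for the core alone, 2.67 with clone 5 coordinates, 3.61 with gene ends within 500 bp, 2.35 for peaks narrower than 500 bp and 2.13 with no USF2 peak within 1 kb. Leaving out 1 library at a time gave 1.62 to 3.78 points for the PLAG consensus, 5590 to 8470 for the number of PLAG1-S-only narrow peaks, 26.6 to 36.6% for the coding genes with one, 88.0 to 90.8% for the share at gene starts, 33.0 to 38.4% for summits upstream of the start and 8.80 to 15.6% for summits with an E-box. The number of peaks was 8470 without the clone 5 PLAG1-S library, and the E-box share at summits 15.6% without the clone 4 USF2 library.

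With the clone as a replicate block, so that each clone's PLAG1-S peaks were set against its own USF2 peaks and the values averaged, there were 8677 peaks at 37.2% of the coding genes, with 88.2% at starts. The PLAG consensus difference was then 1.22 points (−0.414 in clone 4 and 2.86 in clone 5), and the E-box difference −43.7. These counts include peaks found in 1 clone only.

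A −log10 q of at least 10 in both clones left 1653 peaks at 9.06% of coding genes. Of those nearest a gene start of known strand, 44.3% had the summit upstream of it. Of those with the summit inside a promoter window, 17.7% had an E-box within 50 bp of it. The share of coding genes was 20.3% with 50% reciprocal overlap, 27.2% with clone 5 coordinates, 32.3 and 22.6% with gene ends within 3 kb and 500 bp, 21.9 and 29.6% for peaks narrower than 500 bp and of any width, 23.1% with no USF2 peak within 1 kb and 25.4% with the summit in place of the interval. In the same order, the share at starts was 90.1% with reciprocal overlap, 85.3 and 93.2% with gene ends within 3 kb and 500 bp, 90.2 and 91.6% for peaks narrower than 500 bp and of any width, and 91.7% by the summit. Reciprocal overlap raised the E-box share at summits to 13.7%. Without peaks whose local background was over 2 times the lowest, an alternative chosen after seeing the data like those on summits, 23.6% of coding genes had a peak. The causes of these shifts were not tested.

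The depth limits the absence of USF2 to peaks called from few fragments (a median of 20 and 23 per USF2 summit), and the motif values cover only the 2403 of 5511 peaks that overlapped a coding promoter window. The motif values at summits cover only the 1303 peaks with the summit inside such a window.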
